A study of Mus musculus with 229 samples.

Results

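Distal intergenic open intervals are stretches of accessible chromatin that lie far from every protein-coding gene. They were taken from 1 pooled list of open intervals of PDGFRa-GFP cells of the mouse cerebral cortex. A member is a unique interval on chromosomes 1 to 19, less than 1500 bp wide, that lies outside and more than 50 kb from every protein-coding gene span of mm10. Of 76321 unique intervals, 74909 were on these chromosomes, 73007 of those were narrow, and 9501 were distal, which is 12.4% of the list. The authors' calls of open intervals and the widths of these calls chose the members, together with position. Heights, q-values, widths and spacing of the members are therefore described and not tested.

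Chromatin was profiled by ATAC-seq, in which a transposase cuts accessible DNA, in PDGFRa-GFP cortex cells titled E14.5 (1 sample) and P5 (1 sample). The deposited list pools both stages, so the stages cannot be told apart in it. In these mice GFP reports use of the promoter of Pdgfra, whose product, a receptor for PDGF, is found on oligodendrocyte precursor cells (OPCs). Genes near the members were read in 1 Drop-seq library of PDGFRa-GFP cortex at postnatal days 1 to 3 (P1-3; 3184 cells) and in single cells captured on the C1 chip at P6 (53 cells) and P3 (60 cells). Per the labels, cells without GFP and cells that took up a dye of dead cells were sorted out before ATAC-seq. The genotype field of the ATAC samples reads PDGFRa normal, their stage and strain fields differ from their titles, and the C1 cells carry hGFAP-gfp in a strain field. Titles were followed. Animals are not named, each C1 set counts as 1 sample, and no group has a replicate for any comparison below.

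The cells of the expression tables were mixed. Pdgfra stood at 140.7 CPM (counts scaled to the total of the library) in the Drop-seq library, with a molecule in 20.85% of cells, and reached 10 TPM (a length-corrected share of each cell's transcripts) in 50.9% of P6 and 18.3% of P3 cells. The summed level of 12 interneuron and neuroblast markers was 4557 CPM, against 2146 CPM for 12 measured OPC markers. The highest sum of any list was 10061 CPM for 5 choroid plexus or ependymal markers, but Ttr alone gave 10015.6 CPM of it. Ttr had a molecule in 62.8% of cells, and the next of these markers, Folr1, had 37.8 CPM in all and a molecule in 1.79%. This sum therefore does not measure the share of choroid plexus cells. The 4 erythroid markers had 460 CPM. The Drop-seq cells had 617 to 18886 unique molecules (UMIs) each, with a median of 2013.5. The depth of the ATAC list and of the C1 cells is unknown, because these files hold no read counts.

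Open chromatin far from genes can mark enhancers, which act on promoters over long distances, insulator sites, and promoters of genes that make no protein. Many microRNAs (miRNAs), small RNAs that lower the output of matching messenger RNAs, are cut from long non-coding RNAs (lncRNAs) in gene-poor regions. A miRNA finds its targets mainly through its seed, bases 2 to 8. In the developing brain, genes of neural transcription factors often sit beside long stretches without other genes.

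Several miRNA genes known from the nervous system had distal intervals close by, and the mature RNAs of the loci described further on are shown first, 5′ to 3′, with the seed in capitals (RefSeq, GRCm38.p6, the build also called mm10). Mir9-2 lies at chr13:83738814-83738885 inside the lncRNA C130071C03Rik, with 7 members within 5 kb. Mir125b-1 (chr9:41581926-41582002) lies inside Mir100hg and also has 7 within 5 kb, Mir125b-2 (chr16:77646273-77646343) has 5, and both give the same miR-125b-5p. Mir137 (chr3:118433857-118433929) has 5, Mir99a (chr16:77598936-77599000) has 4 and its neighbour Mirlet7c-1 has 3. Mir129-2 (chr2:94241364-94241453) has 4. The miRNA gene with the most members within 5 kb was another, Mir3089 with 8, and Mir101c had 5.
miR-9-5p: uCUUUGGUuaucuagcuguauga
miR-9-3p: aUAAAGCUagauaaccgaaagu
miR-125b-5p: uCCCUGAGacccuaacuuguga
miR-137-3p: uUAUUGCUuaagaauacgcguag
miR-99a-5p: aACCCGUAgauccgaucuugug
let-7c-5p: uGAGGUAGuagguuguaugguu
miR-129-5p: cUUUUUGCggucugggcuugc
No seed is shared among these 7. Sets of miRNAs with shared seeds stood at 2 other places. The miR-17 to miR-92a genes (chr14:115043671-115044506 in all) had 3 or 4 members within 5 kb each, and there miR-17 and miR-20a share a seed, as do miR-19a and miR-19b.
miR-17-5p: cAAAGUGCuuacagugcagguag
miR-20a-5p: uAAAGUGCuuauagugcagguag
miR-19a-3p: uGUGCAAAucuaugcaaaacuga
miR-19b-3p: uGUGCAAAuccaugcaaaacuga
miR-18a-5p: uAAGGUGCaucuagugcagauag
miR-92a-3p: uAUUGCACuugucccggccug
On chromosome 7, 6 genes of the miR-344 family lie between 262966 and 510874 bp from Ndn, and each of them overlaps a member itself. Their 5′ arms in miR-344, miR-344c and miR-344g share a seed, and that of miR-344f differs.
miR-344-5p: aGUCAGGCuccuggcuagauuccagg
miR-344c-5p: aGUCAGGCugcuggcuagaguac
miR-344g-5p: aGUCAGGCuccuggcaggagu
miR-344f-5p: aGUCAGUCuccuggcuggaguc

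Promoters of lncRNAs could also lie inside members, because only protein-coding spans were kept out by the rule. Of 11588 RefSeq lncRNA promoter windows of 300 bases, 219 from 188 genes overlapped a member. Their median GC content was 51% and they held a median of 6 CpG, against 48.3% and 4 in all windows, wherever these lie. Windows that overlapped a member held the E-box CAGCTG in 26.9% of cases and all windows in 17.7%. The Sox core ACAAAG was in 27.4% against 22.2%, and the core TTGGCA of the NFI site in 20.1% against 15.97%. Both strands were searched, and CAGCTG reads the same on both. A match is a description of letters and shows no binding. The windows of 3 genes that lie wholly inside strong members are shown, 5′ to 3′ on the gene's strand, with matches to any of these 3 motifs in capitals. C130071C03Rik is the host of Mir9-2 (chr13:83721131-83721430, plus strand, 12 CpG, inside a member of fold 12.6). D130051D11Rik lies between Wnt7b and Ppara (chr15:85634346-85634645, plus strand, 23 CpG, fold 14.7). Gm51670 starts beside Mir125b-1 (chr9:41579597-41579896, minus strand, 5 CpG, fold 7.58).
C130071C03Rik promoter: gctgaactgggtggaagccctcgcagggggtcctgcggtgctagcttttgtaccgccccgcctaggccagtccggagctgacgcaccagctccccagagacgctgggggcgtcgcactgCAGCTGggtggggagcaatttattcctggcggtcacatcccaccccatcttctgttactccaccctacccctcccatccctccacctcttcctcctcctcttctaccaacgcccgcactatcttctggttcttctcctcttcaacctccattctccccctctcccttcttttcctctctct
D130051D11Rik promoter: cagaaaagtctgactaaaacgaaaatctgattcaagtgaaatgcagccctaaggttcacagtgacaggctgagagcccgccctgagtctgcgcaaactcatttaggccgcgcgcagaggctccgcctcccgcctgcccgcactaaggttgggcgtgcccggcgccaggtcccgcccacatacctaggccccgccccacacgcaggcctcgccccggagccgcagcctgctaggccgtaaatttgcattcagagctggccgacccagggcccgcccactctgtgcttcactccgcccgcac
Gm51670 promoter: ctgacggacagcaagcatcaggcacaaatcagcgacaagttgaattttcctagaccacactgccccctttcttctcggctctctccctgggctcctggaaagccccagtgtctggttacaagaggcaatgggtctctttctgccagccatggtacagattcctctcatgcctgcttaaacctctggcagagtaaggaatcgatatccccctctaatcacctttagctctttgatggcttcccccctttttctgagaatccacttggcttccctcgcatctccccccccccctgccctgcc
The first holds 1 match, to CAGCTG, and the others hold none.

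Most distal intervals were low and narrow. The height of an interval is the authors' fold enrichment of its strongest summit over background. Fold values came in steps of 0.506, and each level had 1 q-value. Of the members, 1671 (17.6%) stood at the lowest level of 2.53, whose q was 0.417. Another 2501 stood at 3.03 (q 0.103), and 2096 at 3.54, the first level with a q under 0.05 (0.0196). In all, 5329 members (56.1%) had a q under 0.05, so the list holds many intervals that its own q-value would not keep at that limit. The lower quartile, median and upper quartile of fold were 3.03, 3.54 and 4.04, and those of width were 150, 199 and 303 bp. The minimum width of 150 bp was shared by 3016 members (31.7%).

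Compared with the other narrow intervals, the members resembled those deep inside genes and differed from those at gene ends. Intervals inside genes and over 5 kb from their ends (21938) had the same quartiles of fold, a median width of 204 bp and a q under 0.05 in 56.8%. Intervals within 5 kb of a gene end (31137) had a median fold of 4.04, an upper quartile of 5.56 and a q under 0.05 in 68.2%. More than 1 summit was found in 3.94% of members, 4.43% of intervals inside genes and 17.6% of those at gene ends. A fold of 10 or more was reached by 99 members (1.04%), against 1.062% inside genes and 8.10% at gene ends. At a fold of 20 or more the order was another: 33 members (0.347%), 0.0501% inside genes and 0.254% at gene ends. Of these 33 members, 11 lay in 1 cluster on chromosome 9 and 3 in 1 cluster on chromosome 2. Wide intervals of 1500 bp or more, which the rule leaves out, had a median fold of 11.6.

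The limits of the rule are cuts in distance and width, not in height. The members closest to a gene lay 50006 bp from Bdh1 (fold 6.07) and 50011 bp from Tent5c (fold 6.07). Just outside were intervals 49987 bp from Atg10 (fold 3.54) and 49990 bp from Ipo11 (fold 3.03). The widest members measured 1468 bp near Etv1 (fold 11.1) and 1462 bp near Cibar1 (fold 7.58), and the next wider intervals at such a distance 1500 bp near Kif13b (fold 7.08) and 1519 bp near Zc3h12c (fold 4.55). When spans of all annotated genes, lncRNAs and pseudogenes included, took the place of protein-coding spans, 2558 members remained.

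Members were thinly spread, and thinner with distance from genes. Distal space made up 863.5 Mb, or 35.5% of the space between the first and last gene of each chromosome, and held 10.9 members per Mb, against 40.6 narrow intervals per Mb elsewhere. The lowest density was on chromosome 14 (8.25 per Mb) and the highest on chromosome 13 (14.6), followed by chromosome 8 (14.3). The median distance from a member to the nearest protein-coding span was 144078 bp, and the longest 2188514 bp. Density was lower in each step away from genes, from 17.9 per Mb at 50 to 100 kb (3272 members) over 13.8 at 100 to 200 kb, 9.53 at 200 to 500 kb and 4.73 at 500 to 1000 kb to 2.96 beyond 1000 kb (211 members). Intervals at 5 to 50 kb, which are not members, stood at 23.5 per Mb. For members with a q under 0.05 the density ran from 10.4 to 1.02 per Mb over the same steps. The nearest gene edge was the 5′ end for 51.1% of the 7310 members with a known gene strand, and the 5′ side made up 52.7% of distal space. Of 2495 stretches over 100 kb between neighbouring genes, 1581 (63.4%) held a member. The 914 without one had a median length of 138810 bp, against 340970 bp for those with one.

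**Figure D1:**
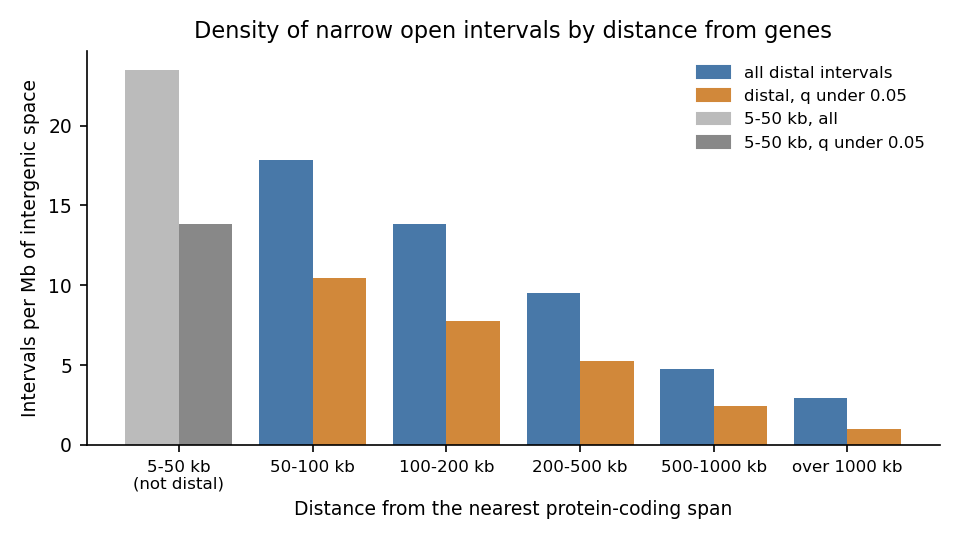
Narrow open intervals per Mb of intergenic space (y axis) by distance from the nearest protein-coding span (x axis); blue bars are all distal intervals, orange bars those with a q under 0.05, and the grey bars at 5 to 50 kb are not distal. Both distal series are lower in each bin away from genes, from 17.9 and 10.4 per Mb at 50 to 100 kb to 2.96 and 1.02 per Mb beyond 1000 kb.

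Along a chromosome the members came in short runs set apart by long gaps. Gaps were measured across gene spans and their 50 kb flanks, where the rule allows no member, so the rule itself sets part of the long ones. Of 9482 gaps between neighbouring members, the median was 33548 bp, with quartiles of 2874 and 158102.5 bp. The shortest gap was 76 bp, and 18.9% of gaps were at most 1 kb. At the other end, 653 gaps were over 1 Mb, and the longest was 12425857 bp on chromosome 7 (chr7:98784464-111210320), where distal space made up 25.8%. The histogram of gaps had a smaller peak below 1 kb and its main peak just above the median. Another member lay within 10 kb of 52.6% of members, and 1233 (12.98%) had none within 100 kb.

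**Figure D2:**
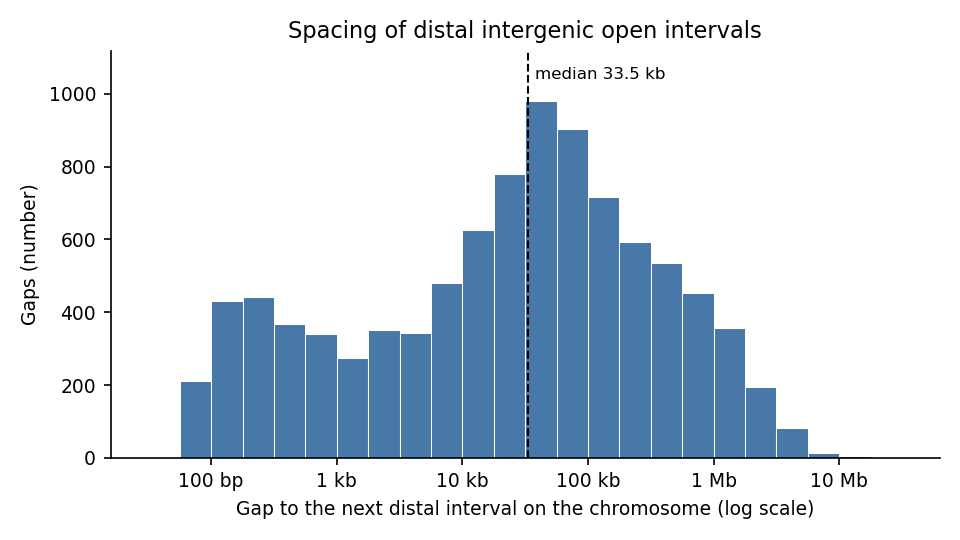
Number of gaps (y axis) by length of the gap from a distal interval to the next on its chromosome (x axis, log scale); the dashed line is the median. The 9482 gaps spread from 76 bp to 12425857 bp, with a smaller peak below 1 kb and the main peak just above the median of 33548 bp. Gaps run across genes and their 50 kb flanks, where no distal interval can lie.

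A cluster was defined as 3 or more members within 20 kb, with overlapping triples joined. There were 789 clusters with 3479 members (36.6%). Most were small: 423 had 3 members, 251 had 4 or 5, 88 had 6 to 9, and 27 had 10 or more (520 members). The median length was 11218 bp. Under the same definition, triples held 67.3% of narrow intervals at gene ends, 52.7% of those inside genes and 49.2% of those at 5 to 50 kb. Members within clusters had the same median fold as the others (3.54), but 61.9% against 52.7% of them had a q under 0.05, and more than 1 summit was found in 5.86% against 2.82%. The share of members in clusters went from 45.6% at 50 to 100 kb from genes to 6.64% beyond 1000 kb. A lncRNA span was touched by 325 clusters (41.2%), a miRNA gene by 12 and a pseudogene span by 36. Counting members less than 500 bp apart as 1 left 431 clusters, and members with a q under 0.05 alone formed 328.

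The 10 clusters with the most members were of different kinds. Of these, 4 lay close together on chromosome 8: chr8:20006431-20154566 with 88 members, chr8:20257831-20287576 with 32, chr8:20415906-20441585 with 25 and chr8:20812277-20834990 with 17. The genes beside the first pair, 9530057J20Rik and Gm15319, had the most members of all genes, 73 and 72. Gm15319 was listed at 0 TPM in all C1 cells, and Defb33, an antimicrobial defensin beside the last of the 4, had 0.367 CPM and 0 TPM. Pseudogene spans lay in each of these 4 clusters, and their highest folds were 4.55 to 7.58. The stretch around them held 172 members, and without it 35.4% of members were in clusters. Whether reads of near-identical copies were shared among such places was not tested.

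Another cluster of 43 members filled chr6:114533875-114592198 between Hrh1, a histamine receptor, and Atg7, an autophagy enzyme, without an annotated lncRNA or miRNA, with folds of at most 6.07. Its ends lie 50576 and 50928 bp from these genes, so the 50 kb rule bounds its extent and number of members, as for other clusters that reach this limit. The cluster at chr8:123587542-123603635 between Gas8 and Rhou had 20 members, 19 of them with a q under 0.05, over 9 genes of ribosomal RNA. It reached the limit on both sides too, at 50884 and 50293 bp from these genes. The 18 members at chr9:3004457-3038297 lie before the first protein-coding gene of the chromosome. Their median fold was 31.6 and all 18 had a q under 0.05, which made them the strongest of the 10 clusters by median. The remaining 3 lie beside lncRNAs: chr13:83717544-83760589 with 26 members between Mef2c and Tmem161b, chr2:30659292-30738146 with 22 around Mir3089, between Cstad and 1700001O22Rik, and chr7:73594686-73655292 with 20 between Chd2, a chromatin remodeller, and Fam174b.

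The strongest single members stood apart from the rest and were few. The highest was chr2:98666165-98667405 at a fold of 216.9, 1034492 bp from Lrrc4c, and 2 more of the 33 members with a fold of 20 or more lay beside it (122.3 and 87.0). Next were chr12:97061355-97061862 near Galc at 174.9 and chr12:3109797-3110162 near Rab10 at 126.4. Below these came single members near G6pd2 (75.8), Csf2ra (70.8), Fgf14 (66.7) and Cr2 (60.7), and the highest of the chromosome 9 cluster near Alkbh8 (73.3). Of the 33, 11 belong to that cluster, and the 33 together carry 5.23% of the summed fold of all members. Whether reads of near-identical copies gathered at these members was not tested, so their folds may not measure openness. Genes beside them differed widely in level, from 1.22 CPM for Cr2, a complement receptor of B cells, and 1.47 CPM for G6pd2 to 139.7 CPM for Rab10, a vesicle transport GTPase.

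Below the first 10, clusters lay beside genes of many kinds. The next in size had 16 members between Nr5a2 and Ptprc, 15 between Polg and Rhcg over the lncRNA Mir9-3hg, and 15 between Haao and Zfp36l2. That between Polg and Rhcg ended at the 50 kb limit on both sides, at 50163 and 50571 bp. Clusters near genes of neural development are given here as examples, and whether clusters favour such genes was not tested. A cluster of 14 members (chr3:34403819-34481643) lay 168351 bp from Sox2, a factor that keeps neural progenitors. Another of 13 (chr11:113164104-113192453) lay between Sox9, a factor of glial fate, and Slc39a11, inside the lncRNA 2610035D17Rik. It was 376346 bp from Sox9 and closer to Slc39a11, at 52397 bp. Further clusters had 12 members between Hes1, a Notch effector 77855 bp away, and the closer Cpn2 at 61653 bp, 11 next to Mn1, 10 next to Wnt7b, a Wnt ligand, 9 on the side of Sox11, 9 on that of Pou3f3, a POU factor of cortical neurons and progenitors, and 9 on that of Zfp608. In the imprinted region between Ube3a and Snurf, a cluster of 11 members spanned part of Snhg14, a stretch that also holds 18 snoRNA genes, although only 2 of all members overlapped a snoRNA gene. These clusters were named after their sizes had been seen.

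Many members lay on or near non-coding genes. A lncRNA span overlapped 2131 members (22.4%), and 34.6% lay within 5 kb of a non-coding gene of any kind. Of 156 miRNA genes over 50 kb from protein-coding spans, 42 (26.9%) had a member within 5 kb. The same held for 49 of 527 snoRNA genes (9.30%), 16 of 267 snRNA genes (5.99%) and 224 of 2765 pseudogenes (8.10%). Small RNA genes often sit in tandem, and with neighbours joined into loci the shares were 30.7% of 101 miRNA loci and 6.15% of 325 snoRNA loci. For lncRNAs the share was 37.9% of 3135, but their median span of 11354 bp is far longer than that of miRNAs at 82 bp. Counting genes closer to protein-coding spans too, 49 miRNA genes had a member within 5 kb and 22 of them had at least 3.

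Around Mir9-2, which gives the neural miR-9, 26 members lay within 60 kb with folds of 2.53 to 12.6, and 19 had a q under 0.05. They were uneven, with 20 on the lower-coordinate side of the gene, where the host C130071C03Rik starts, and 6 on the other. The highest was chr13:83720579-83721967, which holds the printed promoter. Next was chr13:83739057-83740011, at a fold of 9.60 and 0.884 kb from the middle of the miRNA gene. C130071C03Rik overlapped 18 members in 19928 bp, or 9.03 per 10 kb. Its length was the shortest among the 4 lncRNAs with the most members, of which Mir100hg had 22 in 238660 bp, 2610035D17Rik 18 in 157933 bp and Gm34196 18 in 332426 bp.

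The loci of miR-125b, which is abundant in the brain, differed in layout. Mir125b-1 had 12 members within 60 kb, 10 of them with a q under 0.05, and the highest (7.58) lay 2.17 kb from it. Mir125b-2 had 15, of which 12 were on the lower-coordinate side, including a separate group around Mir99a and Mirlet7c-1, and its highest (8.59) lay 1.75 kb from the gene. Both genes of the neuronal miR-124 that lie in distal space were flanked as well, Mir124a-2 by 11 members, 10 of them on the lower side, and Mir124a-1 by 7. Mir137, a regulator of neuronal differentiation, had 5 members, all between folds of 3.03 and 4.04 and all within 5 kb. Thus at Mir9-2 and Mir125b-2 most members lay on one side, although those of Mir9-2 reached from 21.3 kb below to 21.6 kb above the gene, while at Mir137 they stayed at the gene. The 60 kb windows were not alike, because no member can lie within 50 kb of a protein-coding span. Mef2c lies 71734 bp from Mir9-2 on the lower side, so the rule sets the lower reach there. Kif13b lies 61750 bp from Mir124a-1 on the higher side. The width limit also leaves out chr14:64586865-64588364 close to Mir124a-1. That interval is 1500 bp wide, and its fold of 7.08 is above that of the highest member there (6.57). Mir137 is 128179 bp from its nearest span. Totals, sides and reach therefore cannot be compared directly among these genes.

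**Figure D3:**
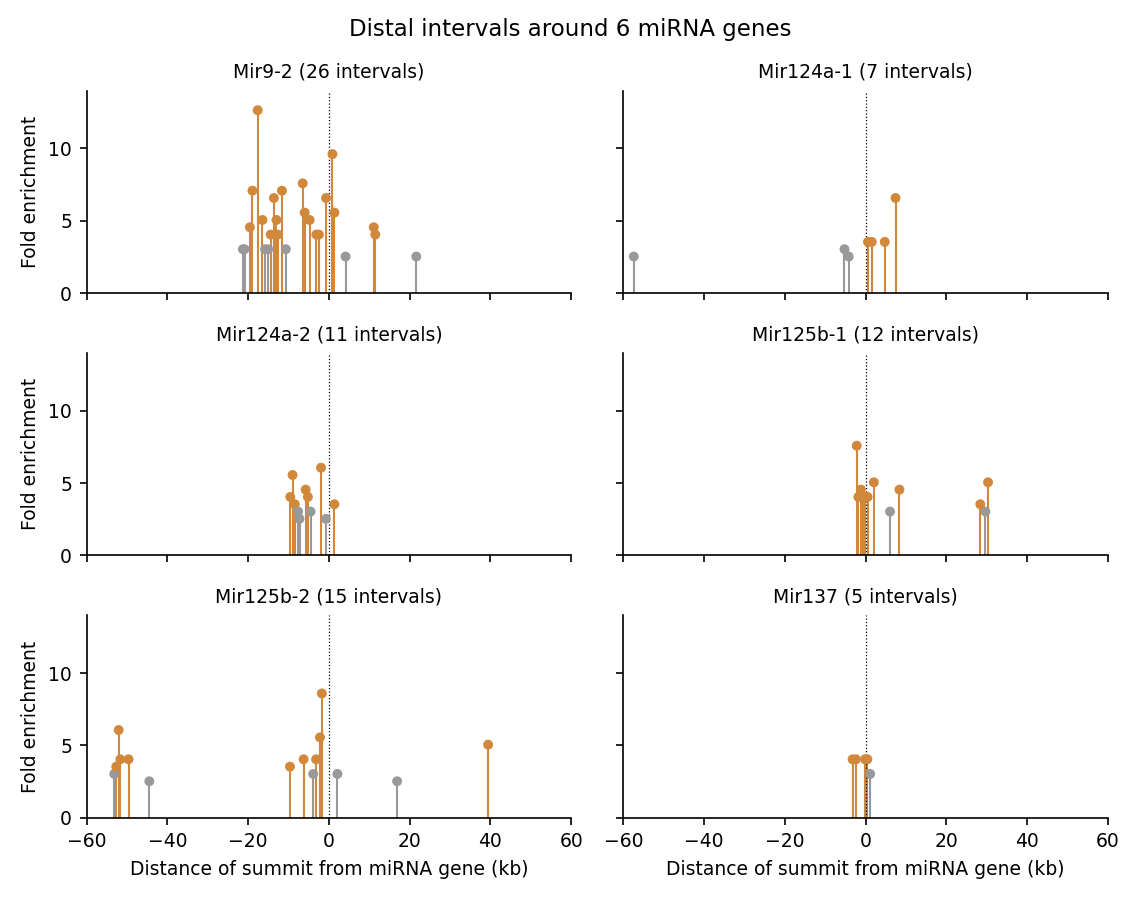
Fold enrichment (y axis) of each distal interval against the distance of its summit from the middle of the miRNA gene along the chromosome's coordinates (x axis, kb), for 6 miRNA genes; orange stems have a q under 0.05 and grey stems do not. Mir9-2 has the most intervals (26) and the highest fold (12.6), while all 5 intervals of Mir137 stand within 5 kb of it. By rule no interval lies within 50 kb of a protein-coding span, which shortens the windows of Mir9-2 and Mir124a-1. An interval 1500 bp wide with a fold of 7.08 close to Mir124a-1 is left out by the width limit.

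The lncRNAs with more members were detected more often in the expression tables. Among distal lncRNAs with at least 3 members within 5 kb, 11 of 39 listed in Drop-seq had 10 CPM or more (28.2%), against 1 of 71 with 1 or 2 members and none of 64 without. In C1 cells, 15 of 83 (18.1%), 3 of 193 (1.55%) and 2 of 294 (0.680%) reached 10 TPM in at least 10% of cells. Longer genes can hold more members, and the median spans were 28440.5, 14898 and 9168 bp in the same order. Strand of counting is not given in the sources used here, so reads of a lncRNA and of an antisense partner cannot be told apart.

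C130071C03Rik stood at 185.5 CPM in Drop-seq, with a UMI in 32.2% of cells. Its TPM ran from 0 over a median of 9.48 to 1695 in P6 cells and from 0 over 10.9 to 1459.9 in P3 cells, so the sets overlapped almost wholly (mean ± SD 224.8 ± 389.5 over 53 cells and 168.8 ± 305.8 over 60 cells). Gm17750, which lies between the same protein-coding neighbours and overlaps 10 members, had 398 CPM. Its median was 0 TPM in P6 cells and 155.7 TPM in P3 cells, and 30.2% and 63.3% of cells reached 10 TPM. Mir124-2hg, the host of Mir124a-2, reached 10 TPM in 3.77% of P6 and 21.7% of P3 cells, at means of 2.00 and 33.2 TPM. Mir100hg, Mir99ahg and Mir9-3hg had 62.6, 54.2 and 88.8 CPM. These lncRNAs were detected, while mature miRNAs are not counted in these tables. As annotated, Mir99ahg ends at chr16:77558428, before Mir99a, and is not listed as its host.

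The members were nearest to 2218 protein-coding genes. Nearest is a matter of position here, and whether an interval acts on that gene was not tested. In Drop-seq, 51.2% of the 1994 nearest genes in the table reached 10 CPM, against 48.8% of all autosomal protein-coding genes. The share went with the number of members: 46.2% of genes nearest to 1 or 2, 52.5% of those with 3 to 9 and 68.7% of the 201 genes with 10 or more (138 genes). Genes that border distal space but are nearest to no member stood at 45%. In C1 cells 36.5% of 2148 nearest genes reached 10 TPM in at least 10% of cells, against 30.9% of all such genes, 28.9% of border genes without a member and 49.0% of genes with 10 or more members. Median levels followed the same order, at 23.3 CPM for genes with 10 or more members, 10.7 for all nearest genes, 9.31 for all genes and 7.22 for border genes without one.

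Genes with much distal space can collect more members, so the genes were also grouped by members per Mb of the distal space nearest to them, where that space was at least 0.1 Mb. The share at 10 CPM was 40.6% of 229 genes with none and 36.8% of 261 with up to 5 per Mb. It was 50.1% at 5 to 15, 54.4% at 15 to 30 and 63.9% of 158 genes at over 30 per Mb. The lowest 2 groups were thus out of order, and the others were higher with density.

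**Figure D4:**
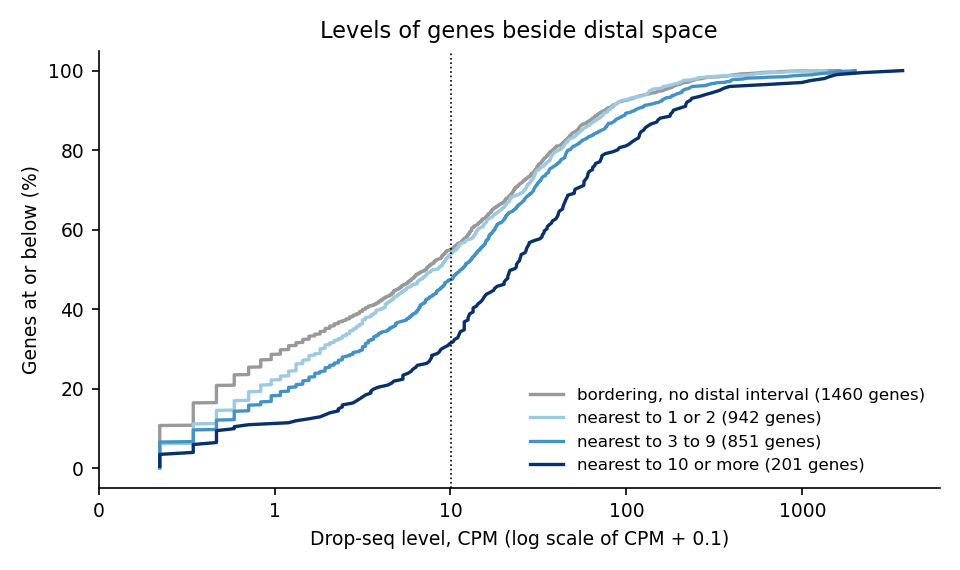
Cumulative share of genes (y axis, percent) at or below a Drop-seq level (x axis, CPM, log scale of CPM + 0.1) for genes that border distal space without a distal interval and for genes nearest to 1 or 2, 3 to 9, and 10 or more; the dotted line is 10 CPM. The curve of the 201 genes with 10 or more lies to the right of the others, with 68.7% of genes at 10 CPM or more against 45% of the border genes.

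Transcription factors stood among the genes with most members. Of 98 autosomal neural transcription factors in a list, 65 (66.3%) were nearest to a member, 48 to at least 3 and 22 to at least 10, with 524 members in all, and their distal space held 17.8 members per Mb. Of 71 synaptic adhesion and cadherin genes, 60 (84.5%) were nearest to a member, with 391 members, but at 4.81 per Mb in larger space. Growth factors and receptors had 25 of 45 genes and 85 members (9.28 per Mb). OPC surface and matrix genes had 12 of 25 and 40 members (6.89 per Mb). Of all autosomal protein-coding genes, 10.7% were nearest to a member, at 11.0 per Mb. That share is a low base, because 16548 of the 20661 genes had no distal space and no member. Genes that border distal space numbered 75 of the transcription factors, 64 of the synaptic genes, 32 of the growth factors and receptors and 16 of the OPC genes. Among all genes 4103 border it, beside 2218 nearest to a member. The lists were chosen with earlier results of these data known.

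Among transcription factors, Sox2 had 32 members, 22 of them with a q under 0.05, and 218 CPM. Bcl11a, a zinc finger factor of neurons, had 29 members and 177.9 CPM. Mycn, a factor of progenitor growth, had 26 and 25.1 CPM. Nr2f1, a nuclear receptor that sets cortical areas, had 24 (111.9 CPM), Pou3f3 had 23 (284 CPM) and Sall3 had 21 (75.7 CPM). Levels of factors with 13 to 19 members reached from 45.3 CPM for Sox11 to 994 CPM for Nfib, 1118 CPM for Sox4 and 1336 CPM for Tcf4. A high number of members was not needed for a high level, as Meis2 with 2 members had 898 CPM.

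Other genes with many members were of mixed function and level. Usp25, a deubiquitinase, had 43 members and 15.6 CPM, and its long intergenic stretch holds Mir125b-2, Mir99a and Mirlet7c-1. Zfp608, a zinc finger gene, had 42 and 90.9 CPM, and Mef2c, a factor of neurons and muscle, had 40 and 21.3 CPM. Mn1, a transcription coregulator, had 34 members (18.4 CPM), Adgrl2, an adhesion receptor of synapses, 33 (13.4 CPM), Tmem161b 29 (61.4 CPM) and Castor2, an arginine sensor homologue, 26 (34.04 CPM). The highest Drop-seq levels among genes with at least 3 members were largely those of ribosomal protein genes, 7 of the 10 highest, led by Rps29 with 10 members (3718 CPM) and Rps24 with 18 (2202 CPM). With them stood the cyclin Ccnd2 with 3 (1899 CPM) and Marcks, a membrane-bound actin regulator, with 17 (1571 CPM), and the histone variant H2az1 with 4 (1557 CPM). Reads of ribosomal protein genes can also match their processed copies, which makes their counts uncertain.

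Between the C1 sets, 1449 nearest genes had a mean of at least 1 TPM in either set. The log2 ratio of the means (TPM + 1), P6 over P3, was above 1 for 540 of them (37.3%), against 33.9% of all 15737 genes measured so, and below -1 for 246 (16.98%), against 20.5% of all. The median was 0.45 for nearest genes and 0.32 for all genes. When log2(TPM + 1) was averaged over cells instead, 181 nearest genes (12.5%) were above 1, against 9.40% of all, and 70 (4.83%) below -1, against 3.81%, so the order of the shares below -1 turned. Of the 11366 autosomal protein-coding genes among these, 28.5% were above 1 and 20.8% below -1 (median 0.16). Border genes without a member had 37.7% and 15.8%, and genes with 10 or more members 35.98% and 16.5%. Nearest genes were thus close to border genes without a member, and more of both groups were above 1 than of protein-coding genes as a whole. The cell make-up of the sets moved too: the summed OPC markers averaged 2705 TPM at P6 and 1117 at P3, and the summed interneuron and neuroblast markers 944 and 4442. The sets also differed in the number of genes at 10 TPM or more per cell. Its median was 2748 at P6 (2070 to 3381) and 2396 at P3 (1481 to 3689). The part of cell make-up and of this number in the ratios was not tested.

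By list, 26 of 48 synaptic adhesion and cadherin genes nearest to a member were above 1 and 7 below -1 (median 1.28), as were 10 and none of 12 OPC surface and matrix genes (median 1.88). Neural transcription factors were split, with 12 above and 10 below of 53 (median 0.05). Growth factors and receptors had 6 and 3 of 18 (median 0.54). Over all 15737 genes measured so, 33.9% were above 1 and 20.5% below -1, and for border genes without a member 37.7% and 15.8%. List genes without a member were not set beside these, so the ratios cannot be tied to having one. Pdgfra itself was nearest to 5 members, with a log2 ratio of 1.98. Its TPM ran from 0 over a median of 12.6 to 2013 at P6 and from 0 over 0 to 803 at P3. Sox6, a factor of OPCs and of some interneurons, was nearest to 10 members, all with a q under 0.05. It ran from 0 over 228 to 1899.6 TPM at P6 and from 0 over 1.75 to 1102 TPM at P3 (log2 ratio 2.119). For both genes the ranges overlapped, while the P6 median was the higher one.

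Synaptic adhesion genes with higher P6 means included Adgrl3, a latrophilin receptor, with 8 members and 208 against 18.97 TPM, and it reached 10 TPM in 64.2% of P6 and 23.3% of P3 cells. Lrrtm4, a postsynaptic leucine-rich protein, had 5 members and 158.5 against 17.3 TPM. Tenm4, a teneurin with 18 members, was among the 7 with the opposite order, at 0.00244 against 14.3 TPM and 10 TPM in none and 5% of cells. Of the OPC genes, Ptprz1, a receptor phosphatase, had 7 members, all in clusters, and 689.5 against 350.3 TPM. Of the growth factor list, the Notch ligand Dll1 had 3 members and 28.8 against 3.53 TPM. Adgrl3 and Lrrtm4 had no member in a cluster, while Sox4 had 14 of its 15 and Sox2 25 of its 32 in clusters.

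In the other direction, Bcl11a had a median of 0 TPM at P6 (highest 836) and 77.4 at P3 (highest 1471), a log2 ratio of -1.97, and 18.9% and 61.7% of cells reached 10 TPM. Sp8, a factor of interneuron progenitors with 9 members, had medians of 0 and 330.1 TPM and highest values of 989 and 3095, a log2 ratio of -2.79. Sox2 had like values in both sets, with medians of 2.52 and 5.81 TPM and a log2 ratio of 0.27. The largest ratios among genes with at least 3 members mostly came from few cells. Cwc22, a splicing factor, was an exception: 62.3% of P6 and 3.33% of P3 cells reached 10 TPM (log2 ratio 6.36, 4 members). Dpyd, the nearest protein-coding gene of Mir137, reached it in 11.3% of P6 cells and was listed at 0 in all P3 cells. Chodl, a lectin-like membrane protein, reached it in 5% of P3 cells and was listed at 0 in all P6 cells, and Pbx3, a homeobox factor, had 1.89% and 13.3% (log2 ratio -4.46, 4 members). The other 8 genes at the ends of the range reached 10 TPM in at most 11.7% of cells of either set. They were Anxa1, Fggy, Trmt9b and Ccdc85a on the P6 side (log2 ratios of 4.23 to 4.96) and Rybp, Gatb, Otos and Map9 on the P3 side (-4.09 to -4.41).

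Cells of the Drop-seq library were clustered and named by markers. They gave 507 OPC-like cells (median 2247 UMIs), 556 primitive OPC-like cells (1940), which carry markers of early glial progenitors such as Egfr and Dll3, and 615 interneuron and neuroblast-like cells (1505). Further classes were cycling-like (730), oligodendrocyte-like (38) and astrocyte-like (44). Another 71 cells belonged to 3 other named clusters, of which the choroid plexus or ependymal-like one had 53, and 623 cells in 4 clusters stayed unnamed. The largest of these 4 had 365 cells and was led by haemoglobin genes, although Hbb-bs had a UMI in only 2.51% of all cells. It also had raised levels of 11 of the 12 interneuron and neuroblast markers, so the interneuron and neuroblast-like class leaves these cells out. Another unnamed cluster, of 215 cells, had Mcm2, Mcm3 and Mcm4 among its top genes. Levels per class are CPM of summed UMIs with 95% Poisson intervals, which cover counting error only in 1 library. Clusters were made from these cells' genes, markers such as Sox9 and Dlx2 included, so class levels are a description.

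Genes beside rich distal stretches fell into groups. Sox2 had 210.0 CPM in OPC-like, 190 in primitive OPC-like and 198 in interneuron and neuroblast-like cells, with overlapping intervals (185 to 237, 166 to 215 and 171 to 227). It stood higher in the other classes, at 508 CPM (398 to 638) in oligodendrocyte-like, 405 (303 to 532) in astrocyte-like and 260 (241 to 280) in cycling-like cells. Bcl11a, Sp8 and Dlx2 were higher in the interneuron and neuroblast-like class. Bcl11a had 33.9 (24.4 to 45.8), 36.7 and 427 (388 to 469) CPM, and Sp8 had 4.04, 12.7 and 294. Sox9 and Sox6 had the opposite order, Sox9 with 279 (251 to 310.5), 212 and 23.6 (15.1 to 35.1) CPM and Sox6 with 111, 112 and 30.5. Sall3 had 71.9, 143 (123 to 166) and 33.4 CPM in these classes, and 187 (120 to 278) in astrocyte-like cells. The lncRNA Gm17750 had 71.1, 44.6 and 809.5 CPM, and C130071C03Rik 136.5, 155 and 273, so neighbours in 1 stretch differed in how steeply they varied. Of the 138 genes with 10 or more members and 10 CPM, 42 (30.4%) were highest in the interneuron and neuroblast-like class. This was so for 23.8% of all 8129 genes at that level. The astrocyte-like class had 24.6% against 24.8%, and the oligodendrocyte-like class 19.6% against 24.8%. The OPC-like class had 16.7% against 17.2%, and the primitive OPC-like class 8.70% against 9.35%. Cycling-like cells were not among these 5 classes. The astrocyte-like and oligodendrocyte-like levels rest on only 44 and 38 cells.

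**Figure D5:**
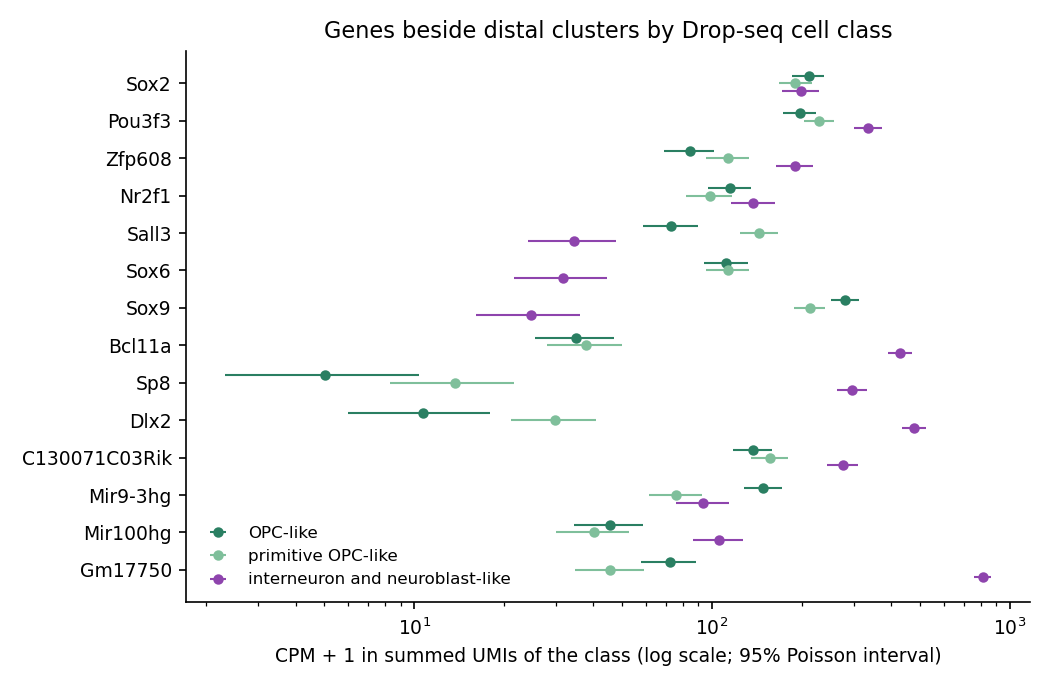
Level (x axis, CPM + 1 on a log scale) of 14 genes beside distal clusters or with many distal intervals in the summed UMIs of OPC-like (dark green), primitive OPC-like (light green) and interneuron and neuroblast-like cells (purple); bars are 95% Poisson intervals of 1 library. Sox2 lies between 190 and 210 CPM in all 3 classes, Sox9 and Sox6 are lower and Bcl11a, Sp8, Dlx2 and Gm17750 higher in the interneuron and neuroblast-like class.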

How the data were processed

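ATAC-seq libraries of PDGFRa-GFP cortex cells at E14.5 and P5 were made from 50000 sorted cells with 75 bp single-end reads, per the labels' protocols. The submitters' processing notes name CASAVA, Bowtie2, MACS2 2.12 and HOMER, and the builds mm10 and rn5. How these were combined into the pooled list is not given in the sources used here. The authors deposited, for each of 93170 summits, its fold enrichment (a ratio to background), a −log10 p-value and a −log10 q-value. All folds were whole steps of 0.506, each with 1 p-value and 1 q-value, so no background that varied from place to place is seen in them. Summits were joined into 76321 intervals by taking the strongest. For Drop-seq (STAR, mm10, per the submitters' processing notes) the authors deposited a signal, UMIs scaled to 10000 per cell. Whole UMIs were recovered by division, and 100% of values were whole within 0.02. For C1 cells (RSEM, per the submitters' processing notes) the authors deposited TPM values, whose totals per cell were 799846 to 970627.

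Protein-coding spans (21883) came from the RefSeq table of GRCm38.p6. Distance is the gap to the nearest span edge. Interval scripts were tested on simulated data. Drop-seq names matched RefSeq for 20129 of 22105 genes and C1 names for 33941 of 46523. Cells with at least 200 genes were clustered with scanpy 1.11.5 (2000 variable genes, 30 components, 15 neighbours, Leiden resolution 1, seed 20), and classes were named by marker lists. No doublet caller was run. Genes were named by rule: the 12 with the most members, those beside the 10 largest clusters and the 10 strongest members, the 10 highest in Drop-seq and the 6 highest and 6 lowest P6 to P3 ratios among genes with at least 3 members, and members of the gene lists. Other clusters, miRNA loci and lncRNAs were named after their values had been seen. Members and lists were chosen with earlier results of these data known. No test was made, because no group has a replicate. The planned search for motifs at summits was not run, since no genome sequence was used here.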

Additional observations from a re-analysis of the deposited data

How the results depend on the processing

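Of 66 alternative values for 14 results, 38 moved by less than the margin set for them and 28 moved by more. Only the median log2 ratio of P6 over P3 could change sign, and it kept its sign. The other results are counts, shares, levels and lengths, which cannot be negative. The number of members was 6218 at over 100 kb, 2558 with spans of all genes, 927 at a −log10 q of at least 5 and 247 at 10. Clusters numbered 16 at a −log10 q of at least 5, 431 with members less than 500 bp apart counted as 1 and 328 with a q under 0.05. The share of members in clusters was 26.5% for triples within 10 kb, 54.6% within 50 kb, 8.31% at a −log10 q of at least 5, 21.5% with close members joined, 26.3% with a q under 0.05 and 35.4% without the stretch of chromosome 8 with 172 members. The median gap was 60374.5 bp with a q under 0.05. For members with a −log10 q of at least 5, nearest genes had 10 CPM in 61.1% (median 16.4 CPM) and passed in C1 in 42.1% (median 9.37 TPM). For nearest genes of members in clusters the shares were 57.4% and 39.04%. At lower limits of 1 CPM and 1 TPM the shares of all nearest genes were 79.7% and 47.4%. When log2(TPM + 1) was averaged over cells, 181 nearest genes (12.5%) were above 1 and 70 (4.83%) below -1, against 9.40% and 3.81% of all genes. The shares below -1 were therefore in the opposite order to those reported, and this was also so without a filter on low values (11.5% against 6.93%). miRNA genes with a member were 18.6% within 2 kb and 37.8% within 10 kb, and snoRNA genes 4.74% and 16.1%. The alternatives with a q under 0.05, without the chromosome 8 stretch or without folds of 20 or more, and the 2 and 10 kb limits, were chosen after seeing the data. Motif shares in wider windows were not run. No paired analysis was possible because the result comes from no test and the interval list pools its samples. Depth limits what can be said: the lowest fold is 5 steps of 0.506, so at that level 1 step more or less changes the q-value, and 1 UMI is 0.122 CPM in Drop-seq.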

Other observations

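Genes next to distal space with few or no intervals had higher P6 means more often than genes next to dense space. The log2 ratio of P6 over P3 was above 1 for 45.6% of 180 genes with up to 5 distal intervals per Mb, 45.1% of 142 with none in at least 0.1 Mb of space, and 30.8% of 117 with over 30 per Mb. Of 8950 genes without any distal space, 26.04% were above 1, with a median of 0.09. No test was made, and the summed OPC and neuroblast markers moved between the same sets.

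Among the miRNA genes with intervals close by were also those of the imprinted Mirg region on chromosome 12. Mir3072 had 4 members within 5 kb, and Mir541, Mir409, Mir412, Mir369 and Mir410 had 1 or 2 each, at 137990 to 143459 bp from Rtl1. Mir181a-1 lay 77 bp from the edge of a cluster of 16 intervals, of which 8 had a q under 0.05, inside which the lncRNA Gm4258 had 23.5 CPM.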
